A study of Mus musculus with 4 samples.

Results

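Ecrg4 Nppc Igfbp6 fibroblasts are a small set of cells from the meninges on the cerebellum of young mice, chosen by their transcripts. A kept barcode (at least 500 genes, at least 1000 UMIs, at most 10% mitochondrial UMIs) was a member where Ptprc, Pecam1 and Cdh1 were at 0 and Igfbp6 was detected. Its UMIs of Ecrg4, Nppc, Slc16a9 and Crispld1 also had to sum to at least 5, and to at least 2 times the sum of Slc6a13, Aldh1a2 and Slc6a20a and 2 times the sum of Col15a1, Lum and Itih5. A UMI (unique molecular identifier) marks 1 captured transcript. The rule found 596 cells among 38722 kept barcodes, or 1.54%. There were 110 and 205 members in NdpKO replicates 1 and 2, and 144 and 137 in NdpWT replicates 1 and 2.

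The study measured dissociated subdural meninges by 10x Chromium 3' single-cell RNA sequencing in 4 libraries. NdpKO libraries came from Ndp knockout mice that carried Neurod2-SmoA1 on 1 allele, and NdpWT libraries from mice with the same transgene and wild-type Ndp, all C57/BL6 at postnatal days 6 to 8 by the sample fields or 7 to 9 by the protocol. The transgene places SmoA1, an activated form of Smoothened, under the Neurod2 promoter, which is active in granule neurons, so no library lacks it. Each library is a pool of 5 cerebella from 3 litters. The 4 runs were separate and each NdpWT run was matched by litter to an NdpKO run. The dura stayed with the skullcap and choroid plexus was left aside. Ages and litters cannot be told apart within a pool. Xist, which is transcribed in female cells, was at 0 CPM (counts per 1e6 summed UMIs) in the members of every library and at no more than 0.499 CPM in the other fibroblast groups. Ddx3y, which is Y-linked, stood at 71.3 to 88.8 CPM in members, against 70.3 to 101.1 CPM in those groups.

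The leptomeninges are built of layered fibroblasts, which lay down collagen, carry solutes between blood, cerebrospinal fluid and brain, and secrete signals to the tissue beneath. Ecrg4 encodes the secreted precursor of augurin, Nppc encodes C-type natriuretic peptide, and Igfbp6 encodes a secreted binding protein that prefers Igf2. Ndp encodes norrin, a secreted ligand of Fzd4 that acts with Lrp5 or Lrp6 and Tspan12 through beta-catenin. The comparison asks how these cells differ where norrin is missing.

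The 4 libraries held 114363848 to 125981161 UMIs. NdpKO replicate 1 stood apart: 44.1% of its barcodes were kept, against 64.8% to 67.0% in the other 3 libraries. Of its barcodes 21.8% were over the mitochondrial limit, whether or not they met the other limits, against 7.58% to 10.4%. Any 2 libraries shared 15 to 48 kept barcodes, 0.263% to 0.441% of the smaller library. Of the members, 6 of 596 had a barcode that was also kept in another library, and no barcode was a member in 2 libraries. Ndp checked the labels over all kept barcodes, with 0.398 and 0.472 CPM in NdpKO replicates 1 and 2, against 2.07 and 1.40 CPM in NdpWT replicates 1 and 2. Within the members Ndp had 0 and 0 UMIs in the NdpKO libraries, where a count of 0 allows up to 1.27 and 1.15 CPM, against 4 and 1 UMIs in the NdpWT libraries. At this depth a difference in Ndp within the members was not detectable.

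The members were deeply read cells with a wide range of depth. Their median was 13561 UMIs, from 1010 to 74748 in single cells. The library medians were 18272.5 and 11687 UMIs in NdpKO replicates 1 and 2, and 17572 and 11701 in NdpWT replicates 1 and 2. The replicates numbered 1 were thus deeper than those numbered 2 in both genotypes. Median genes per member were 4530 and 3807 in the NdpKO libraries, against 4557.5 and 3626 in the NdpWT libraries.

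The sum of the 4 selecting genes had a median of 48.5 UMIs per member and reached 615. All 4 genes were detected together in 335 members, or 56.2%. Ecrg4 gave 56.6% and 59.4% of that sum in NdpKO replicates 1 and 2, and 53.7% and 64.4% in NdpWT replicates 1 and 2. Nppc gave 10.6% and 9.09% in the NdpKO libraries, and 12.1% and 6.39% in the NdpWT libraries. At the edge of the rule, 55 members had a sum of exactly 5 and 62 cells that met every other condition had a sum of 4. Slc47a1, a gene outside the rule, was at 80.4 CPM (24 UMIs) in those 55 members and at 121 CPM (20 UMIs) in the 26 members with a sum of 6. It was at 95.9 CPM (28 UMIs) in those 62 cells and at 11.7 CPM (7 UMIs) in the 86 cells with a sum of 3. Members at the edge were thus below the 318 to 416 CPM of all members, and these few UMIs are pooled over libraries.

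By collagen and decorin, the name fibroblast held for most members. A check set after seeing the data asked for at least 0.3% of a cell's UMIs from Col1a1, Col1a2, Col3a1 and Dcn, under 5% from haemoglobin genes and under 1% from choroid plexus genes. In all, 481 members (80.7%) passed: 82 and 164 in NdpKO replicates 1 and 2, and 118 and 117 in NdpWT replicates 1 and 2. Of the rest, 96 had too little collagen and decorin, 30 had much haemoglobin and 2, both in NdpWT replicate 2, were rich in choroid plexus transcripts, with overlap between the reasons. The 12 fibroblast markers summed to 19621 and 16098 CPM in the members of NdpKO replicates 1 and 2, and to 14475 and 15795 CPM in those of NdpWT replicates 1 and 2. In Slc6a13 Aldh1a2 fibroblasts, the 2194 cells chosen by the same form of rule for Slc6a13, Aldh1a2 and Slc6a20a, that sum was 17051 to 20165 CPM. In the 1618 Col15a1 Lum fibroblasts, chosen likewise for Col15a1, Lum and Itih5, it was 21406 to 27379 CPM.

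RNA of other cells was present as well. The erythroid markers summed to 19208 and 21900 CPM in the members of NdpKO replicates 1 and 2, and to 12476 and 18876 CPM in NdpWT replicates 1 and 2. In the members that passed the fibroblast check these sums were 541 and 947 CPM in the NdpKO libraries and 721 and 1637 CPM in the NdpWT libraries. Choroid plexus markers stood at 158 and 119 CPM in the NdpKO libraries, against 146 and 6746 CPM in the NdpWT libraries, of which replicate 2 holds the 2 choroid-rich cells. In the members that passed the check they stood at 144 and 121 CPM in the NdpKO libraries and 151 and 174 CPM in the NdpWT libraries. Of these markers, Aqp1 was at 40.9 to 65.8 CPM and Calml4 at 38.5 to 73.7 CPM over all members. Both other fibroblast groups had at most 7.32 and 5.33 CPM, and cells with Ptprc UMIs at most 3.40 and 10.3 CPM. Whether members themselves express these 2 genes was not tested. Ptprc, Pecam1 and Cdh1, which define immune, endothelial and arachnoid barrier cells, are at 0 by the rule. The 14 arachnoid barrier markers summed to 927 and 810 CPM in members of the NdpKO libraries and to 879 and 785 CPM in those of the NdpWT libraries, against 636 to 906 CPM in Slc6a13 Aldh1a2 fibroblasts and 496 to 586 CPM in Col15a1 Lum fibroblasts. Of these markers, Abcb1a was at 24.9 to 60.4 CPM in members, against 1.37 to 3.99 CPM over both other groups, Abcg2 at 100.4 to 137 CPM, against 31.8 to 47.2 CPM, and Krt8 at 1.32 to 4.23 CPM, against at most 0.171 CPM. Krt18 was at 0 in 3 of 4 libraries and at 4.60 CPM in NdpWT replicate 2, Dsp at no more than 1.32 CPM and Cldn1 at no more than 1.97 CPM in members. Of the granule neuron lineage markers, Neurod1 was at 44.1 to 122 CPM in members, against 38.2 to 88.8 CPM over both other groups. Stmn2 was at 55.2 to 146 CPM in members, against 37.8 to 98.1 CPM. The part of other cells' RNA in the results was not tested.

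Many solute carriers, and single secreted Wnt modulators and matrix genes, were far higher in the members than in the other fibroblast groups. The rule chose cells within this contrast, so these levels are a description with no test. Of 2748 genes with at least 50 CPM in the members of every library, 90 genes (3.28%) were at least 4-fold above both other groups in each of the 4 libraries, the rule's own genes aside, and 28 were at least 16-fold above. Levels here are CPM on plain totals, given for NdpKO replicates 1 and 2 and then NdpWT replicates 1 and 2. Among the genes with names in Slc, a count made after seeing the values, 14 of 29 were at least 4-fold above. Only genes with at least 50 CPM in the members could enter that count. With a limit of 20 CPM in the members it was 15 of 71, beside 121 of all 5550 genes (2.18%).

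Slc47a1 (chr11, GRCm38), a proton-coupled exporter of organic cations, led the ranking. It stood at 318 and 349 CPM in members of the NdpKO libraries and 416 and 383 CPM in those of the NdpWT libraries, against 1.09 to 2.62 CPM in Slc6a13 Aldh1a2 fibroblasts and 1.5 to 3.45 CPM in Col15a1 Lum fibroblasts. Slc4a10, a sodium-coupled bicarbonate transporter, stood at 474 and 391 CPM in NdpKO members and at 422 and 384 CPM in NdpWT members, and at no more than 5.48 CPM in either other group. Every member library was thus far above every library of both other groups, in both genotypes. Slc6a6, the taurine transporter, was at 270 to 335 CPM in members, against 2.75 to 10.2 CPM over the libraries of both other groups. Slc16a1, a monocarboxylate transporter, was at 291 to 308 CPM in members, against 4.65 to 15.1 CPM.

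Other carriers had the same order of groups. Slc26a7, an anion exchanger, ranged from 122 to 156 CPM in members and did not exceed 5.50 CPM elsewhere. Slc23a2, the vitamin C transporter, ranged from 239 to 311 CPM, against 13.5 to 22.6 CPM. Slc38a2, a neutral amino acid transporter, ranged from 1457 to 2126 CPM, against 150 to 368 CPM. Atp1b1, a beta subunit of the sodium pump, was at 524 and 527 CPM in NdpKO members and 804 and 598 CPM in NdpWT members, against 2.66 to 40.1 CPM, and Fxyd5, a regulator of that pump, was at 1619 to 1717 CPM, against 28.9 to 99.8 CPM. Of the carrier list, 24 genes reached 20 CPM in every library of at least 1 of the 3 groups. Of these 12 were at least 4-fold above both other groups in every library and 3 were at no more than 1/4 of both, where 121 (1.82%) and 96 (1.45%) of all 6641 such genes were. This list and those below were chosen with earlier results of these data known, so such counts are a description and no sign of enrichment. Slc22a6, an organic anion transporter, was among those that ran the other way, at 4.46 to 8.44 CPM in members, against 191 to 392.2 CPM over both other groups.

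Among secreted modulators of Wnt signalling, some were far higher in members and others lower. By the same counts, of 14 R-spondins, Wnt ligands and receptors 1 was at least 4-fold above both other groups and 1 at no more than 1/4 of both, and of 11 Wnt targets and antagonists 2 were above and 2 below. Over all 6641 genes so counted, 121 (1.82%) were above and 96 (1.45%) below. Rspo3, which raises Wnt signalling by sparing Frizzled receptors, was at 239 and 256 CPM in NdpKO members and 414 and 333 CPM in NdpWT members, and at 2.05 to 8.03 CPM in the other groups. Dkk2, which binds Lrp5 and Lrp6, was at 335 and 228 CPM in NdpKO members and 132 and 151 CPM in NdpWT members, and at no more than 2.82 CPM elsewhere. Sfrp4, a secreted Frizzled-related protein, was at 333 to 531 CPM in members and at 2.00 to 6.74 CPM in the other groups. Wif1, a secreted Wnt inhibitor, was at 0.422 to 6.58 CPM in members, against 6.25 to 25.7 CPM over both other groups, and Dkk3 at 59.2 to 94.1 CPM, against 70.9 to 99.5 CPM. Wnt4, a ligand, was low in members, at 7.70 to 13.8 CPM, against 298 to 409 CPM in Slc6a13 Aldh1a2 fibroblasts and 133 to 177 CPM in Col15a1 Lum fibroblasts. Axin2, a target of beta-catenin signalling, was at 8.92 to 11.5 CPM in members, against 48.2 to 67.4 CPM and 106 to 147 CPM in those groups. Fzd4, the receptor of norrin, was at 32.3 to 44.6 CPM in members, against 4.10 to 9.23 CPM over both other groups.

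Ecrg4, Nppc and Igfbp6, the secreted factors that name the cells, were used by the rule, and their levels follow from it. Ecrg4 stood at 2865 and 2331 CPM in NdpKO members and 2706 and 2723 CPM in NdpWT members. Nppc stood at 534 and 357 CPM in NdpKO members and 608 and 270 CPM in NdpWT members, higher in replicate 1 of each genotype. Igfbp6 stood at 1045 and 1544 CPM in NdpKO members and 1146 and 1413 CPM in NdpWT members, lower in replicate 1 of each genotype. Igfbp6 was also at 360 to 751 CPM in Slc6a13 Aldh1a2 fibroblasts, so it did not set the members apart in the way that Ecrg4 did, with 32.6 to 45.0 CPM there. Npr3, the clearance receptor of natriuretic peptides, was at 46.6 to 75.5 CPM in members, against 0.512 to 12.9 CPM in the other groups, while Npr2, the signalling receptor of C-type natriuretic peptide, was at 18.1 to 22.3 CPM in members and 11.6 to 27.5 CPM in the others.

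Matrix genes went both ways. Of 17 collagens 4 were at least 4-fold above both other groups and 1 at no more than 1/4 of both. Of 32 proteoglycan, elastic fibre and matrix glycoprotein genes 2 were above and 3 below, and of 16 basement membrane genes 0 were above and 5 below. Over all 6641 genes that reached 20 CPM in the same way, 121 (1.82%) were above and 96 (1.45%) below. Col3a1, a fibrillar collagen, was at 1281 to 2209 CPM in members, against 2045 to 5804 CPM over both other groups, and Col4a1, a basement membrane collagen, at 144 to 224 CPM, against 258 to 2416 CPM. Mgp, an inhibitor of calcification, reached 5878 to 7068 CPM in members, against 47.1 to 983 CPM in the other groups. Col12a1 was at 481 to 761 CPM, against 50.8 to 106 CPM, Col14a1 at 448 to 687 CPM, against 32.4 to 123 CPM, and Krt19, a keratin, at 154 to 216 CPM, against 1.25 to 5.42 CPM. Alpl, tissue-nonspecific alkaline phosphatase, was at 151 to 302 CPM, against 1.54 to 7.98 CPM. Slit2, a secreted guidance cue, was at 139 to 186 CPM, against 4.17 to 8.16 CPM. Slc7a11, the cystine-glutamate exchanger, ran the other way, at 13.5 to 21.9 CPM in members, against 872 to 1006 CPM in Slc6a13 Aldh1a2 fibroblasts and 391.6 to 706 CPM in Col15a1 Lum fibroblasts, as did Vtn (vitronectin), at 19.1 to 82.0 CPM, against 952 to 2725 CPM over both. Of the list of dural border and dural fibroblast markers, which holds Slc47a1, Dkk2, Fxyd5 and Mgp, 8 of the 14 genes that reached 20 CPM in a group were at least 4-fold above both other groups and 0 were at no more than 1/4 of both. That list, too, was chosen with earlier results of these data known. Its Gjb2, a gap junction gene, was lower in members, at 51.3 to 107 CPM, against 157 to 186 CPM in Col15a1 Lum fibroblasts and at least 295 CPM in Slc6a13 Aldh1a2 fibroblasts. The sum of the list, 12223 to 13108 CPM in members, overlapped with the 10183 to 14550 CPM of Col15a1 Lum fibroblasts. Different genes made up these sums. Ptn was at 9112 to 13342 CPM in Col15a1 Lum fibroblasts, against 2001 to 2284 CPM in members. Mgp was at 417 to 983 CPM there, against 5878 to 7068 CPM in members. In all, 51 of 2565 genes with at least 50 CPM in both other groups were at no more than 1/4 of both in the members of every library.

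**Figure D1:**
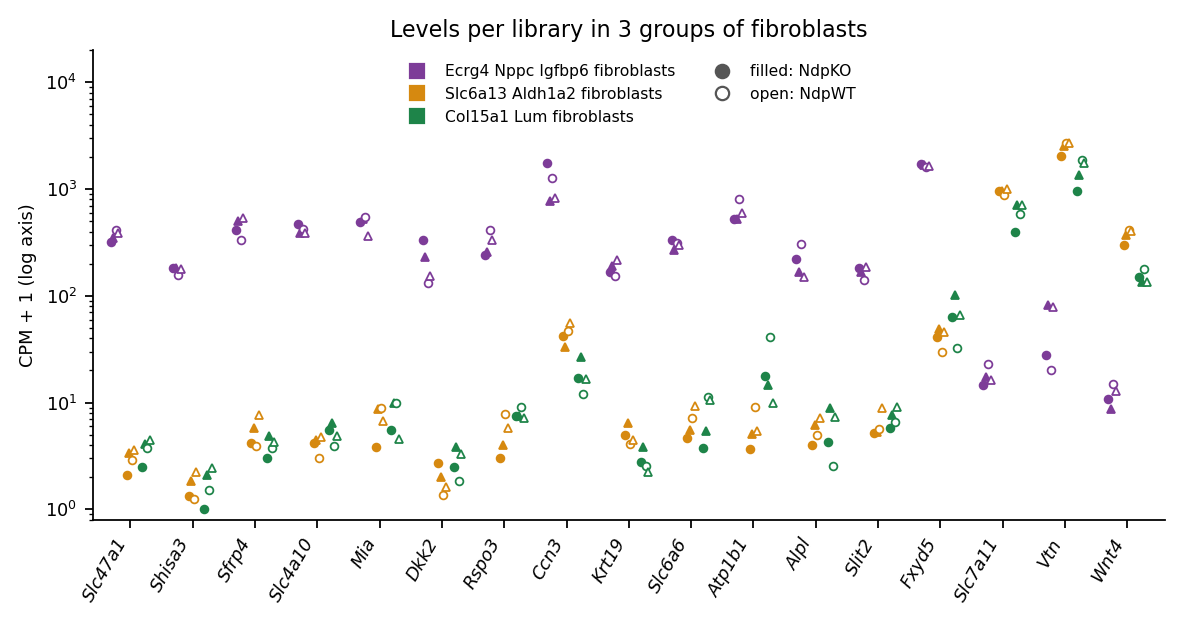
Levels of 17 genes per library in 3 groups of fibroblasts, as CPM plus 1 on a log axis. Purple points are Ecrg4 Nppc Igfbp6 fibroblasts, orange Slc6a13 Aldh1a2 fibroblasts and green Col15a1 Lum fibroblasts; filled points are NdpKO and open points NdpWT libraries, circles replicate 1 and triangles replicate 2. Slc47a1 lies at 318 to 416 CPM in the first group and at no more than 3.45 CPM in the others, while Slc7a11, Vtn and Wnt4 lie in the opposite order.

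Detection in single cells was compared after each was thinned to 3000 UMIs, which left out 132 members of lower depth (25 and 59 in NdpKO replicates 1 and 2, 17 and 31 in NdpWT replicates 1 and 2). Slc47a1 was detected in 52.9% to 57.5% of members over the 4 libraries, against 1.27% to 1.84% of Ptprc-positive cells, which are immune cells and serve as a measure of free RNA. Slc4a10 was detected in 55.9% to 62.4% of members, against 1.15% to 3.07% of Ptprc-positive cells. Rspo3 was detected in 34.1% to 59.1% and Dkk2 in 21.3% to 37.6% of members, against at most 2.33% of Ptprc-positive cells for either gene. All kept barcodes outside the members had Slc47a1 in 1.95% to 4.45%, Slc4a10 in 2.43% to 7.39%, Rspo3 in 2.52% to 5.14% and Dkk2 in 1.05% to 2.77%. By number, Slc47a1 was in 45 and 81 NdpKO members and in 186 and 190 other barcodes of those libraries. In the NdpWT libraries these were 73 and 60 members and 215 and 183 other barcodes. Unthinned, the share of members with Slc47a1 was 83.6% to 85.8%, against 2.92% to 6.81% of Ptprc-positive cells. Each gene was therefore above its level in Ptprc-positive cells, which should lack it, and none was found in every member at this depth.

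The members were not uniform. A graph of the members alone gave 4 clusters, whose leading genes are a description, since the clusters were made from them. Cluster 1 (184 cells) was shallow, with a median of 2403 UMIs, and was given no name. It was led by Ttr, a choroid plexus transcript found in 2 libraries of the cluster, and by haemoglobin genes, with Hbb-bs at 80208 CPM, against 3135 CPM in the other members, and 66.8% of its cells passed the fibroblast check. It held 42 of 110 and 69 of 205 members in NdpKO replicates 1 and 2, against 29 of 144 and 44 of 137 in NdpWT replicates 1 and 2. Cluster 2 (177 cells) was led by Krtdap, found in 6.78% of its cells, Acpp and Adamtsl3, and Alpl and Klf2 ranked lower. Cluster 3 (164 cells) was led by Apod, Pi15 and Egfl6, and Sfrp4 and Dkk2 ranked lower. In clusters 2 and 3, 93.8% and 96.3% of the cells passed the fibroblast check. Cluster 4 (71 cells) was led by Gfap, histone genes, Top2a and Neurod1, of other cell types or of dividing cells, and 47.9% of its cells passed. Cluster 2 held 22 of 110 and 42 of 205 members in NdpKO replicates 1 and 2, against 73 of 144 and 40 of 137 in NdpWT replicates 1 and 2. Cluster 3 held 33 and 73 members in the NdpKO libraries, against 20 and 38 in the NdpWT libraries. These shares were not tested, since genes that define the clusters may themselves differ with genotype.

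**Figure D2:**
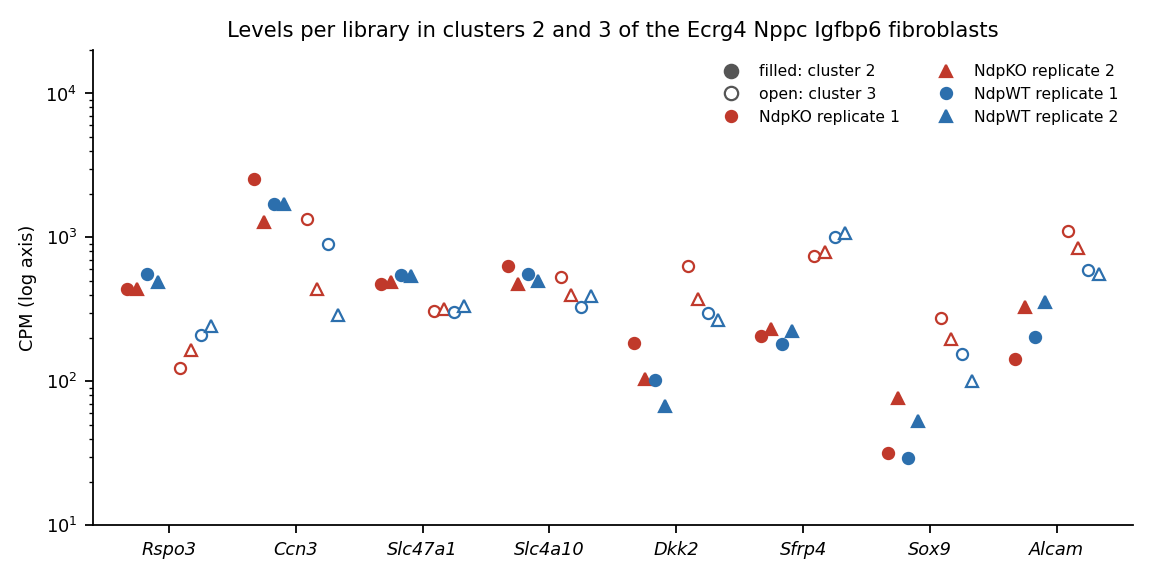
CPM (log axis) of 8 genes per library within 2 clusters of the members; filled points are cluster 2 and open points cluster 3, red NdpKO and blue NdpWT libraries. Rspo3 and Ccn3 lie higher in cluster 2, Dkk2, Sfrp4, Sox9 and Alcam in cluster 3, and within cluster 3 both NdpKO libraries lie above both NdpWT libraries in Dkk2, Sox9 and Alcam, while within cluster 2 the libraries overlap in Sox9 and Alcam.

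Members were 1.93% and 1.88% of kept barcodes in NdpKO replicates 1 and 2, against 1.55% and 1.07% in NdpWT replicates 1 and 2. The means were 1.91% ± 0.0342 in NdpKO and 1.31% ± 0.337 in NdpWT libraries (SD, n = 2 each), a difference of 0.600 percentage points. The groups did not overlap, and the 2-sided exact permutation test gave p = 0.333, the smallest that 2 against 2 libraries allow. As a part of the 3 fibroblast groups, members were 14.5% and 15.7% in the NdpKO libraries, against 16.2% and 9.44% in the NdpWT libraries, and the groups overlapped (2-sided exact permutation p = 1). With thinning of every barcode to 3000 UMIs and a sum of at least 3, the means were 3.53% in NdpKO and 2.49% in NdpWT libraries, which overlapped (2-sided exact permutation p = 0.667). The thinned shares were 4.59% and 2.47% in the NdpKO libraries, against 3.30% and 1.68% in the NdpWT libraries. There the whole rule was applied to the thinned counts. It chose 196 and 199 cells in the NdpKO libraries and 233 and 159 in the NdpWT libraries. Only 85 and 146 NdpKO members and 127 and 106 NdpWT members were deep enough for thinning. The thinned shares thus include cells that are not members, and are not shares of the same cells. Where Igfbp6 was not required, the shares were 2.67% and 2.07% in the NdpKO libraries, against 2.30% and 1.39% in the NdpWT libraries, and overlapped. Without the shallow cluster 1, left out after seeing the data, they were 1.19% and 1.25% in the NdpKO libraries, against 1.23% and 0.726% in the NdpWT libraries, and overlapped (2-sided exact permutation p = 0.667 in both).

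**Figure D3:**
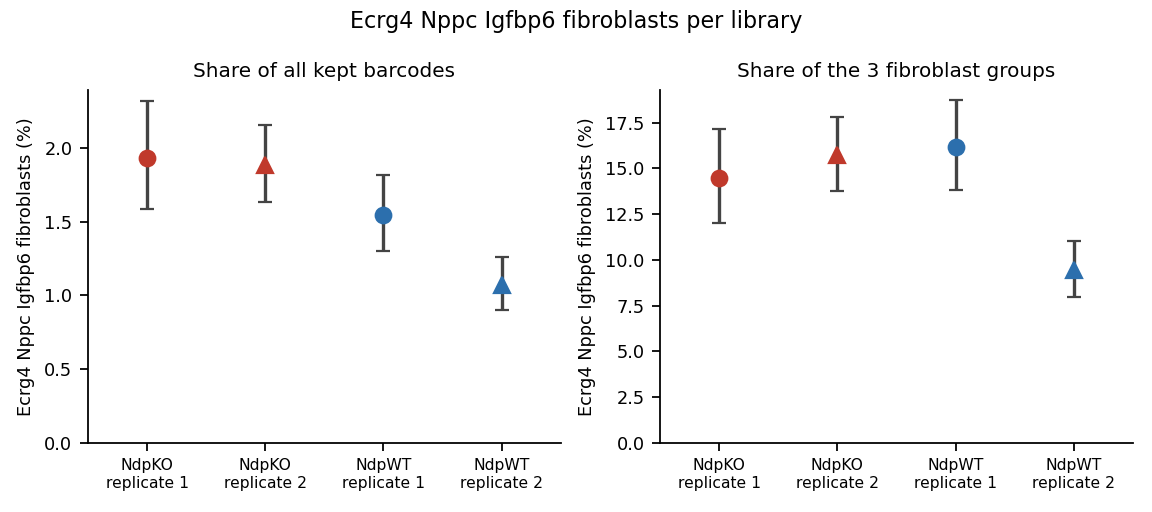
Share of members per library (%), of all kept barcodes (left) and of the 3 fibroblast groups together (right), with NdpKO libraries in red and NdpWT libraries in blue. Bars are exact 95% binomial intervals, which cover counting error only. NdpKO libraries lie at 1.93% and 1.88% of kept barcodes and NdpWT libraries at 1.55% and 1.07%, while the right panel shows overlap.

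No gene of the members passed the test between genotypes. UMIs were summed per library and tested with edgeR's quasi-likelihood test with Benjamini-Hochberg adjustment, and 0 of 11196 genes (0.0%) had an adjusted p under 0.05, the lowest being 0.799. At an unadjusted p under 0.05 there were 420 genes (3.75%), and DESeq2 called 0 genes, with 107 at an unadjusted p under 0.05. The NdpKO libraries lay above the NdpWT libraries without overlap in 15.9% of genes and below in 15.7%. The common spread between libraries was 0.158 as a coefficient of variation, and the median log2 change over all genes was −0.01. Leaving out NdpKO replicate 1, the library that stood apart, gave 11 calls, leaving out NdpKO replicate 2 gave 47, leaving out NdpWT replicate 1 gave 14 and leaving out NdpWT replicate 2 gave 4, so the count of 0 did not hold with any 1 library left out. Levels below are CPM scaled with edgeR's TMM factors, log2 changes are NdpKO over NdpWT, and positions are those of GRCm38.

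The genes of lowest p-value with higher NdpKO values held a Wnt antagonist, a transcription factor and adhesion and growth genes. Dkk2 (chr3:132085292-132180304, plus strand) had 336 and 227 CPM in NdpKO replicates 1 and 2, against 132 and 152 CPM in NdpWT replicates 1 and 2 (log2 change 0.99 ± 0.20 SE, edgeR adjusted p = 0.799). Sox9 (chr11:112782224-112787760, plus strand), a transcription factor of cartilage and glia, had 154 and 139 CPM in the NdpKO libraries, against 84.4 and 87.9 CPM in the NdpWT libraries (0.76 ± 0.16, edgeR adjusted p = 0.799), and among members that passed the fibroblast check its change was 1.13 ± 0.17 (edgeR adjusted p = 0.248). Alcam (chr16:52248996-52454074, minus strand), a cell adhesion molecule, had 597 and 548 CPM in the NdpKO libraries, against 290 and 395 CPM in the NdpWT libraries (0.75 ± 0.18, edgeR adjusted p = 0.999). In each of the 3 genes both NdpKO libraries lay above both NdpWT libraries. Slfn9 had the lowest unadjusted p of all genes, with 27.1 and 17.6 CPM in the NdpKO libraries, against 5.25 and 4.63 CPM in the NdpWT libraries. Slc7a8, an amino acid transporter, Esco2, which acts in sister chromatid cohesion, Ccn2, a matricellular protein, and Arrdc3 had log2 changes of 1.25, 2.01, 0.78 and 1.02, none past the threshold.

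The genes of lowest p-value with lower NdpKO values held Rspo3, 1 of the 6 markers of these cells. Rspo3 (chr10:29452416-29535867, minus strand) had 240 and 255 CPM in NdpKO replicates 1 and 2, against 412 and 334 CPM in NdpWT replicates 1 and 2 (log2 change −0.60 ± 0.16 SE, edgeR adjusted p = 0.999). Fabp5 (chr3:10012548-10016607, plus strand), a fatty acid binding protein, had 189 and 223 CPM in the NdpKO libraries, against 451 and 325 CPM in the NdpWT libraries (−0.92 ± 0.18, edgeR adjusted p = 0.799). Pthlh, which encodes parathyroid hormone-related protein, had 44.0 and 49.0 CPM in the NdpKO libraries, against 72.3 and 76.0 CPM in the NdpWT libraries (−0.67 ± 0.18). All 3 lay lower in both NdpKO libraries over all members. Among members that passed the fibroblast check Fabp5 had 135 and 168 CPM in the NdpKO libraries, against 168 and 350 CPM in the NdpWT libraries (−0.75 ± 0.36, edgeR adjusted p = 1.0), with an NdpKO and an NdpWT library about equal, while Rspo3 and Pthlh had log2 changes of −0.68 and −0.67. Otx2, a choroid plexus marker, had 5.08 and 4.98 CPM in NdpKO libraries, against 13.3 and 17.2 CPM in NdpWT libraries, beside choroid plexus sums of 158 and 119 CPM in NdpKO and 146 and 6746 CPM in NdpWT members, and among members that passed the fibroblast check it was too low to be tested. Bcan, Sowaha, Tlx3 and E130114P18Rik were the others of this set, at no more than 32.7 CPM in any library. Among members that passed the check, Bcan and Sowaha were too low to be tested and overlapped, and E130114P18Rik had 3.96 and 7.49 CPM in the NdpKO libraries, against 8.12 and 20.2 CPM in the NdpWT libraries. Of the markers that the rule did not use, Ccn3 had 1756 and 761 CPM in the NdpKO libraries, against 1255 and 820 CPM in the NdpWT libraries (0.28 ± 0.50), and Slc4a10 had 476 and 389 CPM, against 421 and 386 CPM (0.10 ± 0.16), so both overlapped.

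**Figure D4:**
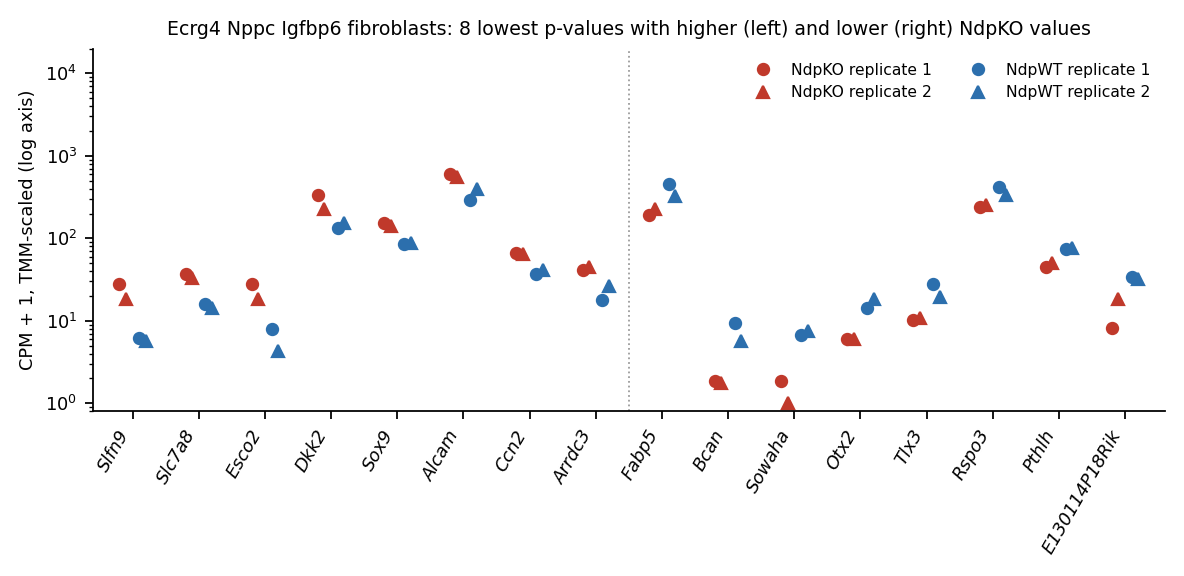
The 16 genes of lowest p-value in the members, 8 with higher and 8 with lower NdpKO values, as TMM-scaled CPM plus 1 on a log axis. Red points are NdpKO and blue points NdpWT libraries (circle replicate 1, triangle replicate 2). In each gene the NdpKO and NdpWT points do not overlap, and none passed the threshold. The genes were picked for their low p-values. Over all genes tested, 15.9% lay above and 15.7% below without overlap.

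The gene lists held 0 genes that rose and 0 that fell, in each of the 42 lists. Beside 15.9% of all genes above without overlap and a median log2 change of −0.01 over all genes, the 25 tested cell cycle genes had 9 above and 0 below without overlap and a median of 0.34, or 0.79 among members that passed the fibroblast check. Pcna, a DNA replication clamp named after its values were seen, had 153 and 94.6 CPM in NdpKO replicates 1 and 2, against 75.5 and 58.8 CPM in NdpWT replicates 1 and 2 (log2 change 0.87 ± 0.24 SE, edgeR adjusted p = 0.999). Top2a, which acts on dividing chromosomes, had 203 and 92.0 CPM in the NdpKO libraries, against 89.3 and 45.6 CPM in the NdpWT libraries. Top2a was at 586 CPM in the 71 cells of cluster 4, of which 47.9% passed the fibroblast check, and at 8.87 to 41.8 CPM in the other clusters. The NdpKO replicate 1 value of both genes was the highest of the 4, and that library also stood apart in its kept barcodes. Whether the cell cycle values come from member cells that divide or from RNA of other dividing cells was not tested. Of the 12 granule neuron lineage genes 1 lay above and 4 below without overlap, beside 15.9% and 15.7% of all genes. Their median was −0.33, or −0.32 among members that passed the fibroblast check. For the 9 macrophage and microglia genes tested these medians were −1.42 and 0.15. The part of such RNA in the genes with lower NdpKO values was not tested.

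No gene of the norrin receptor complex passed the test. Fzd4 had 41.9 and 32.2 CPM in NdpKO replicates 1 and 2, against 44.4 and 34.4 CPM in NdpWT replicates 1 and 2 (log2 change −0.11 ± 0.22 SE). Lrp6 had 182 and 184 CPM in the NdpKO libraries, against 166 and 192 CPM in the NdpWT libraries (0.04 ± 0.15). Lrp5 had a log2 change of 0.28 ± 0.40. Over all genes 15.9% lay above and 15.7% below without overlap. Of 20 R-spondin, Wnt ligand and receptor genes 2 lay above and 4 below without overlap, with a median log2 change of 0.06, and of 11 Wnt targets and antagonists 2 lay above and 2 below, with a median of 0.08. Of 12 CCN family and YAP/TAZ target genes, which respond to cell stretch, 4 lay above and 1 below, with a median of 0.10. Amotl2 of that list had 39.8 and 37.2 CPM in the NdpKO libraries, against 19.8 and 22.5 CPM in the NdpWT libraries (0.87 ± 0.22).

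No carrier, peptide or matrix gene of the lists passed the test either. Over all genes 15.9% lay above and 15.7% below without overlap. Of 26 carriers tested 6 lay above and 4 below without overlap, with a median log2 change of −0.03. Atp1b1 had 526 and 525 CPM in NdpKO replicates 1 and 2, against 801 and 601 CPM in NdpWT replicates 1 and 2 (−0.42 ± 0.18 SE), and Slc47a1 had 319 and 347 CPM, against 415 and 385 CPM (−0.26 ± 0.15). Of 8 genes of the natriuretic peptide system the median was 0.06, and Npr3 had 75.7 and 46.4 CPM in the NdpKO libraries, against 52.5 and 50.2 CPM in the NdpWT libraries. Of 14 IGF genes the median was −0.07, and Igfbp5 had 2807 and 2385 CPM in the NdpKO libraries, against 3053 and 2525 CPM in the NdpWT libraries. Of 17 collagens 3 lay above and 1 below, with a median of 0.16, Col1a1 having 5266 and 3118 CPM in the NdpKO libraries, against 3339 and 2984 CPM in the NdpWT libraries. The 26 nuclear genes of oxidative phosphorylation had a median of 0.01 and the 21 interferon response genes 0.05.

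Where the change with genotype was set against that of Slc6a13 Aldh1a2 fibroblasts of the same libraries, 2 of 13592 genes (0.0147%) passed edgeR's test of the difference, Sox9 and Alcam. Sox9 stood at 153 and 139 CPM (plain totals) in members of NdpKO replicates 1 and 2, against 84.7 and 87.5 CPM in members of NdpWT replicates 1 and 2. In Slc6a13 Aldh1a2 fibroblasts it stood at 22.6 and 24.3 CPM in the NdpKO libraries, against 38.4 and 37.7 CPM in the NdpWT libraries. The NdpKO values were thus higher in the members and lower in the other group, with no overlap in either, and the log2 changes of 0.76 and −0.68 differed by 1.44 ± 0.16 SE (edgeR adjusted p = 0.0122). With members that passed the fibroblast check the difference was 1.85 (edgeR adjusted p = 0.0015). Neither change passed on its own, with an adjusted p of 0.799 in the members and 0.226 in Slc6a13 Aldh1a2 fibroblasts.

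Alcam stood at 596 and 550 CPM in members of NdpKO replicates 1 and 2, against 291 and 393 CPM in members of NdpWT replicates 1 and 2. In Slc6a13 Aldh1a2 fibroblasts it stood at 1025 and 1097 CPM in the NdpKO libraries, against 964 and 1179 CPM in the NdpWT libraries, so the groups overlapped there. The changes differed by 0.75 ± 0.10 SE (edgeR adjusted p = 0.0442). This call was lost without NdpWT replicate 1 (edgeR adjusted p = 0.166), under DESeq2 (0.282) and in 7 other alternatives, and that of Sox9 was lost at a stricter cell filter (0.0657) and without the cells of highest doublet score (0.0535). With cells that hold other markers left out, which also removed most fibroblasts and left 2573 genes to test, the Sox9 difference had the opposite sign (−0.21, edgeR adjusted p = 1.0).

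Against Col15a1 Lum fibroblasts, 2 of 12658 genes (0.0158%) passed, of which Socs2 is described. Socs2, a suppressor of cytokine and growth hormone signalling, stood at 42.6 and 51.2 CPM in members of NdpKO replicates 1 and 2, against 60.8 and 74.3 CPM in members of NdpWT replicates 1 and 2. In Col15a1 Lum fibroblasts it stood at 62.3 and 59.8 CPM in the NdpKO libraries, against 23.2 and 27.4 CPM in the NdpWT libraries, where it rose on its own (log2 change 1.23, edgeR adjusted p = 0.018). The changes differed by −1.76 ± 0.19 SE (edgeR adjusted p = 0.0087), the members alone having a log2 change of −0.52 that did not pass. Without NdpWT replicate 1 the call was lost (edgeR adjusted p = 0.0982).

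**Figure D5:**
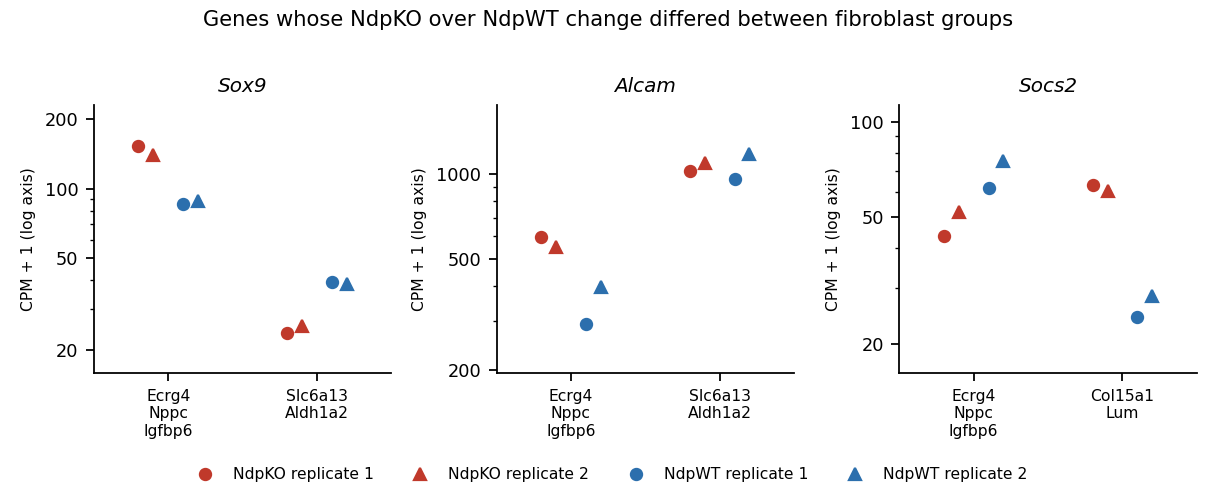
CPM plus 1 (log axis) of 3 genes whose change with genotype differed between the members and another fibroblast group, per library, with NdpKO (red) left of NdpWT (blue) in each group. Sox9 is higher in NdpKO members and lower in NdpKO Slc6a13 Aldh1a2 fibroblasts, and Socs2 is lower in NdpKO members and higher in NdpKO Col15a1 Lum fibroblasts.

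Within clusters of the members, Sox9, Dkk2 and Alcam were described only, with few cells a library. In cluster 3 Sox9 stood at 277 and 198 CPM in NdpKO replicates 1 and 2, against 155 and 100 CPM in NdpWT replicates 1 and 2, and Dkk2 at 635 and 371 CPM, against 297 and 266 CPM. In cluster 2 Sox9 stood at 31.6 and 76.1 CPM in the NdpKO libraries, against 29.2 and 53.4 CPM in the NdpWT libraries, which overlapped. Dkk2 in cluster 2 stood at 184 and 104 CPM in the NdpKO libraries, against 102 and 67.2 CPM in the NdpWT libraries. Cluster 4, led by genes of other cell types or of dividing cells, had Sox9 at 167 CPM over all libraries, in 69.0% of its cells. Alcam stood at 1114 and 850 CPM in the NdpKO libraries, against 589 and 556 CPM in the NdpWT libraries, in cluster 3, and at 142 and 330 CPM, against 203 and 358 CPM, in cluster 2, which overlapped. Rspo3 stood lower in both NdpKO libraries in both clusters, with 441 and 435 CPM in NdpKO, against 557 and 488 CPM in NdpWT libraries in cluster 2, and 123 and 164 CPM, against 211 and 244 CPM, in cluster 3. The shares of the clusters also differed between libraries, and their part in the values over all members was not tested.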

How the data were processed

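The members, the other fibroblast groups and the gene lists were chosen with earlier results of these data known. The values deposited by the authors are raw UMI counts per gene and barcode, 1 sparse matrix per library, made with Cell Ranger 6.1.2 and mm10, per the submitters' processing notes. The sources used here name no step against doublets or ambient transcripts. Free RNA was not corrected for. Of 32285 features, 32235 matched GENCODE M21 (GRCm38), from which positions come, 1-based.

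UMI counts were summed per library over the members, since cells are not replicates. The summed depth was 2371028 and 2598527 UMIs in NdpKO replicates 1 and 2, and 2466755 and 1520637 in NdpWT replicates 1 and 2. NdpKO was compared with NdpWT with edgeR 4.0.16 (limma 3.58.1, R 4.3.3): TMM factors, filterByExpr with a minimum count of 10, robust quasi-likelihood test, Benjamini-Hochberg adjustment over all genes tested and a threshold of 0.05. The 14 genes of the rule and 13 mitochondrial genes stayed in the library totals and out of the tests. Differences between groups of cells were tested as the interaction of group and genotype, with library as block. DESeq2 1.42.0 was an alternative. With 2 pooled libraries per genotype, p-values measure the spread between pools. Chi-square statistics between any 2 libraries, divided by their degrees of freedom, were 3.49 to 6.78, beyond the counting noise of UMIs. They do not separate differences between pools from the sampling of cells. Each library counts once. The scripts were tested on simulated counts.

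Shares were compared with exact permutation tests. For the clusters, 2000 variable genes and 20 components came from scanpy 1.11.5 and a graph of 15 neighbours from scikit-learn 1.9.0. The graph was divided with leidenalg on igraph 0.11.9 at resolution 0.5. Scrublet, run per library with its automatic threshold, called 3 and 152 of the kept barcodes in NdpKO replicates 1 and 2 and 241 and 257 in NdpWT replicates 1 and 2. In NdpKO replicate 1 that is 0.0527%, so the caller did not work there. No call was removed in the main analysis, and 0 and 0 NdpKO and 3 and 0 NdpWT members were called. Alternatives were other scaling, no filter, stricter cells, a higher sum, Igfbp6 not required, thinning, other markers left out, doublets left out, each library left out and the replicate block. The fibroblast check, cluster 1 left out and the cells of highest doublet score were added after seeing the data. Named were the 8 genes of lowest p in each direction, up to 4 genes of highest CPM in each list, genes with at least 5 CPM of the natriuretic peptide, IGF, CCN, R-spondin and carrier lists, and the largest level ratios; genes that ran the other way and marker genes of other cells were added after their values were seen. A further gene that passed a test between groups of cells is not reported here.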

Additional observations from a re-analysis of the deposited data

Results flagged for a closer look

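In 3 genes described here the change with genotype differed between the members and another group of fibroblasts by edgeR's test of the difference, which is what set them apart. The log2 change of Sox9 was higher in the members than in Slc6a13 Aldh1a2 fibroblasts by 1.44 (edgeR adjusted p = 0.0122), and both NdpKO libraries lay above both NdpWT libraries in the members and below them in the other group. With cells that hold other markers left out the difference was −0.21. That of Alcam was higher by 0.75 (edgeR adjusted p = 0.0442), with both NdpKO libraries above both NdpWT libraries in the members and overlap in the other group. Against Col15a1 Lum fibroblasts, the log2 change of Socs2 differed by −1.76 (edgeR adjusted p = 0.0087), with both NdpKO libraries below both NdpWT libraries in the members and above them in the other group.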

How the results depend on the processing

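The count of genes between genotypes, 0, was 42 without the low-count filter and 4 to 47 with each library left out in turn. There the lone library of a genotype is assumed to vary like the other group. Among cells that passed the fibroblast check it was 0, and with libraries left out 4 to 140 (11 without NdpKO replicate 1, 9 without NdpWT replicate 2). The replicate block gave 12 calls, all higher in NdpKO, with Slfn9 and Esco2 among them; the labels do not tie the replicate numbers to litters, and the correlation of same-numbered deviations was 0.119. Against Slc6a13 Aldh1a2 fibroblasts the count of 2 was 91 without the filter, 5 to 81 with libraries left out, 7 with stricter cells, 5 thinned, and 1 with RLE factors, with Scrublet calls left out, with a sum of at least 8 and with other markers left out. It was 0 without the highest doublet scores (646 genes at an unadjusted p under 0.05 by edgeR, and DESeq2, run on all cells, called 3). Against Col15a1 Lum fibroblasts the count of 2 was 123 without the filter, 1 to 73 with libraries left out and 5 thinned. The difference in share, 0.600 points, was 2.29 points of the 3 fibroblast groups and 0.242 points without cluster 1. With the rule applied to thinned counts, which chose other cells as well, it was 1.04 points. Over 21 results on single genes and 359 alternatives, 312 kept direction and side of the threshold, 27 passed it newly, 12 no longer passed it and 8 changed sign. Those 8 were Ccn2 thinned (−0.12), Ccn3 (−0.45) and Slc4a10 (−0.052) without NdpKO replicate 1 (up to 0.76 and 0.24 with another library left out), both also within the fibroblast check without NdpKO replicate 1 (−0.55 and −0.064) and without NdpWT replicate 2 (−0.080 and −0.067), and the Sox9 difference with other markers left out (−0.21), where 2573 genes were tested. The cause of these shifts was not tested. Sox9 between genotypes passed within the fibroblast check without NdpKO replicate 1, NdpKO replicate 2 or NdpWT replicate 2 (log2 changes 1.07, 1.18 and 1.27), and Dkk2 passed without NdpKO replicate 2 (1.25). Depth limits genes of few UMIs, such as Ndp.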
